A study of Mus musculus with 4 samples.

Results

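The genes that encode the proteins of the cytosolic ribosome were examined in sorted cells of the embryonic mouse brain from *Dnmt1* WT and KO embryos. Members were the protein-coding genes whose GENCODE M21 symbol begins with Rpl or Rps followed by a digit, or with Rplp. Ribosomal S6 kinases, pseudogenes and the paralogues *Rpl3l*, *Rpl7l1*, *Rpl10l*, *Rpl22l1*, *Rpl39l*, *Rps4l*, *Rps27l* and *Rps27rt* were left out by name, as was *Rps19bp1*, which encodes a binding partner of a ribosomal protein. This gave 77 genes of 55573 in the count lists, 47 of the large subunit and 30 of the small subunit. The naming rule itself uses symbols and no measured value, and 75 of the 77 passed the filter on low counts, since *Rpl23a* and *Rpl38* had enough reads in too few libraries.

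The cytosolic ribosome consists of a small subunit, which reads the mRNA, and a large subunit, which joins amino acids into protein. Each subunit is built from ribosomal RNA and a set of ribosomal proteins, most of them present in a single copy. Many ribosomal protein mRNAs begin with a C followed by a run of pyrimidines, the terminal oligopyrimidine tract, through which mTOR signalling controls their translation. Ribosomal protein genes are among the most strongly transcribed genes of most growing cells, and their spliced mRNAs have left many processed pseudogenes in mammalian genomes. In developing neurons they supply ribosomes for growth of the soma and its processes.

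RNA was sequenced from tdTomato-positive cells of *Hmx3* origin, enriched by FACS at E16 from dissected tissue that the study describes as the preoptic area. All embryos carried *Hmx3*-Cre and the tdTomato reporter, so that both genotypes were sorted by the same reporter. The study describes the WT mice as *Dnmt1* wild-type and the KO mice as *Dnmt1* loxP2. By design, in KO cells the Cre, which is expressed where *Hmx3* was active in the preoptic area, removes the exons of *Dnmt1* that the loxP sites flank, leaving a null allele, whereas WT cells keep *Dnmt1*, a DNA methyltransferase. The pools came from 12 WT and 6 KO embryos, and there were 2 libraries per genotype, WT 1 and WT 2 against KO 1 and KO 2. The labels call them biological replicates and the study's methods describe technical duplicates of pools, so p-values measure the spread between libraries, which may be technical.

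The libraries held 8951532 counts in WT 1, 9995968 in WT 2, 8075102 in KO 1 and 8813520 in KO 2, where 3 counts equal 0.294 to 0.372 CPM (counts divided by the TMM-scaled size of the library). *Dnmt1* (chromosome 9 of GRCm38) was at 385 and 447 CPM in WT and at 283 and 281 CPM in KO, KO 1 and KO 2 each below WT 1 and WT 2 (log2 fold change -0.56, SE 0.14, edgeR adjusted p = 0.0511). These counts cover the whole gene, so they do not show whether the flanked exons were lost. WT 1 held 8.66% of its counts on mitochondrial rRNA, and the other libraries held 1.51% to 2.32%. The common biological coefficient of variation from edgeR was 0.237 within WT and 0.103 within KO. Marker genes were called at an edgeR adjusted p under 0.05, at which 7.33% of all tested genes rose and 0.57% fell. Of 12 neuronal markers, 3 fell and 0 rose, summing to 6229 and 6781 CPM in WT and 4565 and 4624 CPM in KO. Of these markers, 11 had a log2 fold change below 0, as had 52.4% of all tested genes. Of 11 GABAergic interneuron markers, 0 were called and 9 were below 0, and of 8 tested preoptic markers, 1 rose and 1 fell. The 12 astrocyte markers all rose, from 234 and 244 to 3858 and 4031 CPM. Of 10 mural cell markers, 8 rose (65.7 and 75.1 CPM in WT, 426 and 434 CPM in KO), and of 12 oligodendrocyte markers, 9 rose (212 and 245 CPM in WT, 755 and 764 CPM in KO). Of 4 tested choroid plexus markers, 1 fell, *Ttr*, from 40.8 and 55.3 CPM to 0.951 and 1.10 CPM, and the whole list of 7 summed to 54.6 and 70.7 CPM in WT and to 8.56 and 9.36 CPM in KO. In such sorted pools, fewer cells of a type and less RNA per cell cannot be told apart. The part of these shifts in the values of the ribosomal protein genes was not tested.

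The sequence around the annotated start is shown for 5 members because the tract there is the feature by which these mRNAs are known. RefSeq promoter sequences (GRCm38.p6, 250 bases before to 50 after the start) matched 57 of the 77 members with 67 starts. The lines show 20 bases before and 20 bases from the start on, with the tract in capitals, for the 4 members of highest level that had it at the annotated start and for *Rps6*.
*Rps21*, chr2:180257359-180257398, plus strand: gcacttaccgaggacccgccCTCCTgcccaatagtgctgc
*Rpl14*, chr9:120571497-120571536, plus strand: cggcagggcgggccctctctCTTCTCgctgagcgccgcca
*Rplp2*, chr7:141447631-141447670, plus strand: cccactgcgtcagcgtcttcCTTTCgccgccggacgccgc
*Rps15a*, chr7:118116128-118116167, minus strand: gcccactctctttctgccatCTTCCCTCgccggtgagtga
*Rps6*, chr4:86857348-86857387, minus strand: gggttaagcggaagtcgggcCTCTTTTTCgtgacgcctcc
The tract, a C at the start followed by at least 4 bases that were each C or T, was present at 13 of the 67 member starts (19.4%), at 0 of 75 starts of mitochondrial ribosomal protein genes and at 823 of all 32851 starts (2.51%). Within 10 bases on either side of the annotated start it began at 36 of the 67 member starts (53.7%), against 31 of 75 starts of mitochondrial ribosomal protein genes (41.3%) and 30.7% of all starts. The base at the start itself was C in 31.3% of member starts and in 16.3% of all starts.

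Other motifs were searched on both strands of the same 300 bases. CCGGAAG, the core bound by ETS factors, occurred in 24 of the 67 member promoters (35.8%) and in 8.86% of all promoters, and 34.7% of the promoters of mitochondrial ribosomal protein genes held it as well. GGGCGG, the GC box, occurred in 61.2% of member promoters, 52% of those of mitochondrial ribosomal protein genes and 35.7% of all promoters. AAGATGGC, the core of the YY1 motif, occurred in 10.4% of member promoters, 16% of those of mitochondrial ribosomal protein genes and 2.75% of all promoters. CACGTG, the E-box bound by Myc, occurred in 11.9%, 9.33% and 7.15% of the same promoter groups. TATAAA was found in 8.96% of member promoters, 6.67% of those of mitochondrial ribosomal protein genes and 13.6% of all promoters. These matches describe the letters in these windows and no binding.

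The coding sequence of these genes matters for the counts, because copies elsewhere in the genome hold the same letters. The first 90 coding bases of the longest coding exon are shown for 1 large-subunit and 3 small-subunit genes (GRCm38) that differ in how much of their sequence is shared, with capitals for bases inside any 50-base window that also occurs in a transcript of another annotated gene.
*Rpl8*, chr15:76904818-76904907, plus strand: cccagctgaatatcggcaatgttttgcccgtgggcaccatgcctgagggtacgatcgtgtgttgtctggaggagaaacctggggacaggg
*Rps3*, chr7:99479381-99479470, minus strand: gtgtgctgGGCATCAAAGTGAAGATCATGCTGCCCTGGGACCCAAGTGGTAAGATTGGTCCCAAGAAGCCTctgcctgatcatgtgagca
*Rps29*, chr12:69158671-69158760, minus strand: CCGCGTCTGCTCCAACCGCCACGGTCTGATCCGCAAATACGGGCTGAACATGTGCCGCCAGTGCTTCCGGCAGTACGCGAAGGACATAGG
*Rps27*, chr3:90212955-90213044, minus strand: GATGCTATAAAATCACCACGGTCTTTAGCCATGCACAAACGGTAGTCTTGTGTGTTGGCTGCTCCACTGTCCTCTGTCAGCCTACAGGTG
*Rpl8* had 0 such bases in the stretch and *Rps3* had 63 of 90, whereas in *Rps29* and *Rps27* all 90 were shared. The stretches do not stand for the whole transcripts. Over these, the share of 50-base windows was 2.96% in *Rps3*, 7.9% in *Rpl8*, 35.8% in *Rps29* and 98.65% in *Rps27*.

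Levels were set side by side as CPM per kilobase of annotated exon and spread over a range of 343-fold. Among the highest were *Rplp1* (a stalk protein that recruits elongation factors, 261), *Rpl8* (which lies near the peptidyl transferase centre, 248), *Rpl4* (which lines the exit tunnel, 209) and *Rps15* (207, mean of 4 libraries in CPM per kilobase). The 3 lowest were *Rpl23a* (which lies at the end of the exit tunnel, 0.761), *Rpl36al* (1.21) and *Rps16* (1.38 CPM per kilobase). The median member was at 11.8 CPM per kilobase of annotated exon. The order depended on the length used. Per kilobase of the transcript with the longest coding region, *Rpl8* (396) and *Rpl4* (273) stood above *Rplp1* (261), and *Rpl38* (2.76) stood below *Rpl36al* (3.10). The 10 members with the most reads held 54.3% of all member counts, and 13 members averaged under 50 counts per library. The order of the members was nearly the same in the genotypes (Spearman's rho of mean CPM 0.992 over 77 genes, a description across genes measured in the same libraries).

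**Figure D1:**
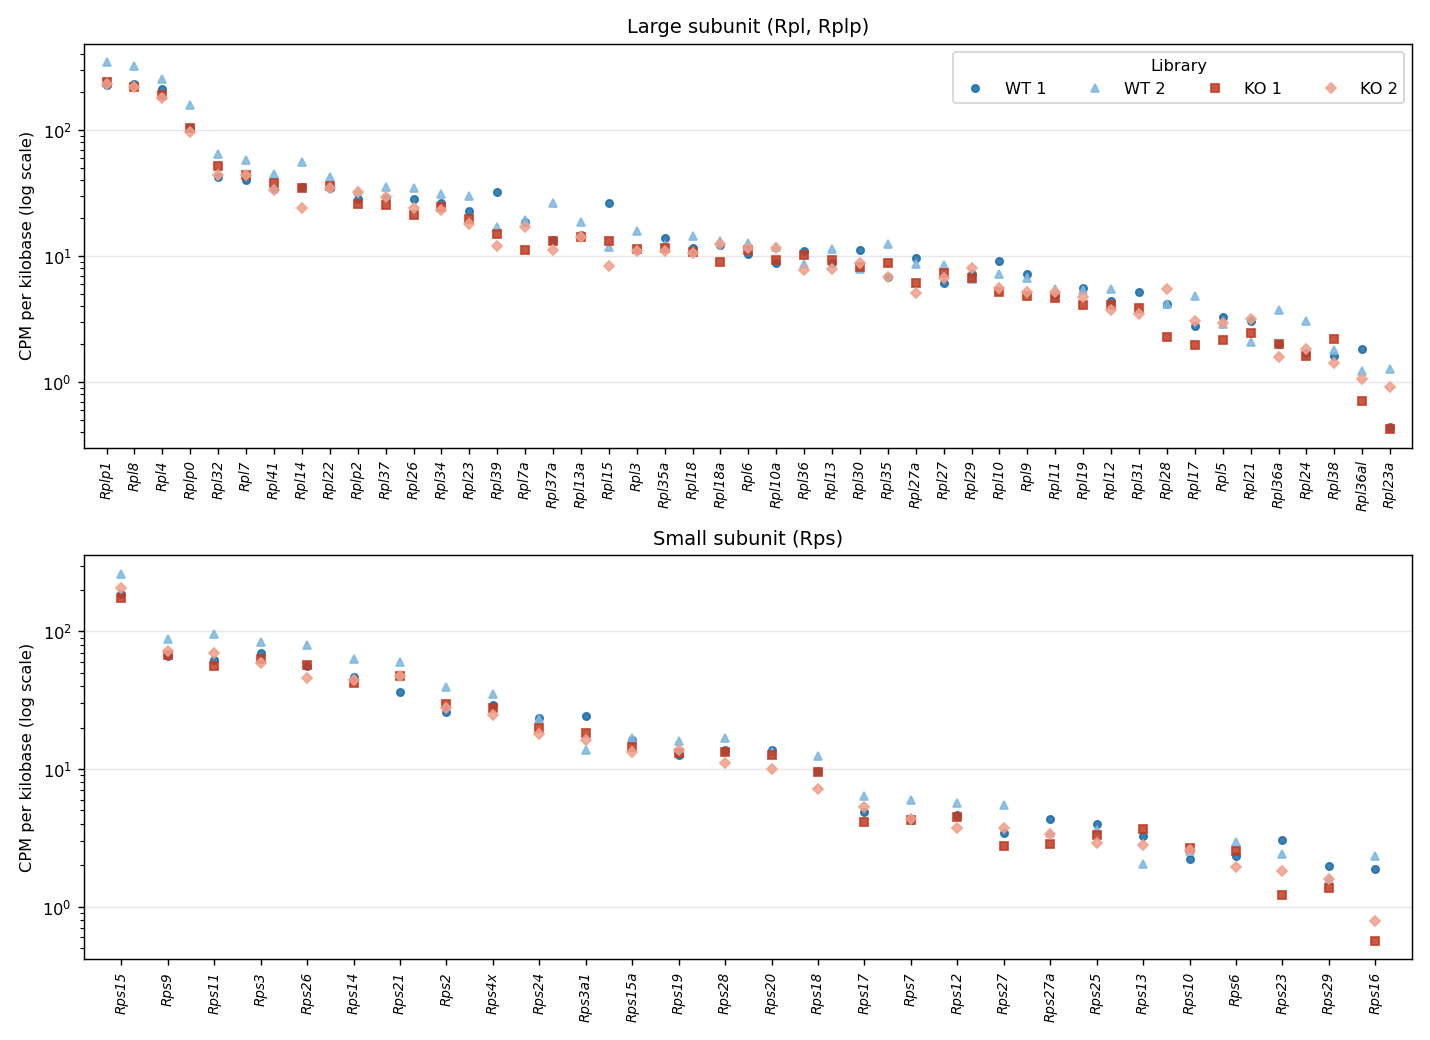
Level of 75 of the 77 members in each library, in CPM per kilobase of annotated exon on a log scale, ordered by mean level within the large subunit (top) and the small subunit (bottom). Each symbol is 1 library, and the WT 2 triangles lie above the other libraries for most of the highly expressed members.

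Examples show how far apart single-copy components of a subunit were measured. *Rps3*, a protein at the mRNA entry of the small subunit, had 2533 counts in WT 1, 3848 in WT 2, 2390 in KO 1 and 2415 in KO 2. *Rps6*, the protein phosphorylated by S6 kinases, had 30 and 48 counts in the WT libraries and 34 and 28 in the KO libraries. *Rps29*, which the study used as its reference gene for quantitative PCR, had 11 counts in each WT library and 8 and 10 in the KO libraries. With so few reads, the log2 fold change of *Rps29*, -0.24, had an SE of 0.60. *Rpl23a* had 3 and 11 counts in the WT libraries and 3 and 7 in the KO libraries, and *Rpl38*, whose loss alters the axial skeleton in mice, had 7 and 10 against 10 and 7. The 3 members with the shortest annotated proteins differed widely in level. *Rps29* is given above, *Rpl41* was at 39.5 and 52.0 CPM in WT and at 44.7 and 39.3 CPM in KO, and *Rpl39* was at 46.3 and 24.5 against 21.6 and 17.2 CPM.

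The share of each library on the 77 genes was highest in WT 2. It was 0.364% in WT 1 (exact 95% binomial interval 0.361% to 0.368%), 0.519% in WT 2 (0.514% to 0.523%), 0.392% in KO 1 (0.388% to 0.396%) and 0.377% in KO 2 (0.373% to 0.382%). Intervals cover counting error only. KO 1 and KO 2 thus lay between WT 1 and WT 2, and the gap within WT was wider than the gap within KO. The mean share was 0.441% ± 0.109 in WT and 0.385% ± 0.0104 in KO (SD, n = 2), a log2 ratio of -0.20, which turned to 0.08 without WT 2. No test was made of this ratio, since an exact permutation test of 2 against 2 libraries cannot reach a small p. With mitochondrial genes taken out of the totals the shares were 0.403% in WT 1, 0.529% in WT 2, 0.403% in KO 1 and 0.388% in KO 2.

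The subunits moved alike between libraries. Large-subunit genes held 0.205% and 0.289% of the counts in WT and 0.218% and 0.210% in KO, and small-subunit genes 0.160% and 0.229% in WT and 0.174% and 0.168% in KO. After TMM scaling, 53 of the 75 tested members were higher in WT 2 than in WT 1, or 70.7% against 47.0% of all tested genes. The median member stood 0.27 above its own mean over the libraries in WT 2, at 0.01 in WT 1, at -0.12 in KO 1 and at -0.15 in KO 2, on the log2 scale. WT 2 was the highest library for 51 of the 75 members, and the lowest library was KO 1 for 25 and KO 2 for 32. TMM factors of 0.903 in WT 1 and 1.02 to 1.05 in the other libraries set WT 1 higher on this scale than in raw shares.

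**Figure D2:**
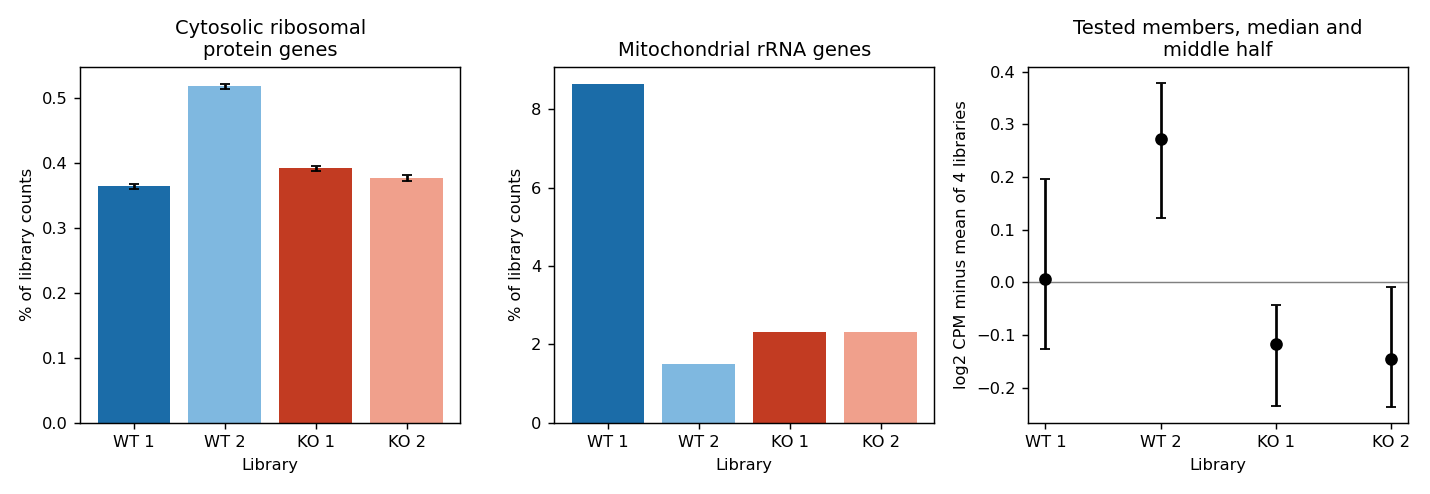
Share of library counts on the 77 members (left, percent of counts with exact 95% binomial intervals), share on mitochondrial rRNA genes (middle, percent of counts) and log2 CPM of the 75 tested members relative to each member's mean over the 4 libraries (right, median with the 25th and 75th percentiles). WT 2 stands highest for the members at 0.519% of counts, and WT 1 stands apart in mitochondrial rRNA at 8.66%.

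The comparison of KO with WT asked whether loss of *Dnmt1* altered the mRNA levels of these genes. At an edgeR quasi-likelihood adjusted p under 0.05, 0 of the 75 tested members rose and 0 fell, while 7.33% of all 16832 tested genes rose and 0.57% fell. At an unadjusted p under 0.05, 9 members were lower (12.0%, against 8.01% of all tested genes) and 0 were higher (against 14.6% of all). With limma-voom 0 members were called higher (against 7.21% of all tested genes) or lower (against 0.594%), and with DESeq2 1 was called lower (against 1.47% of all tested genes). The fitted log2 fold change was below 0 in 70 of the 75 members (93.3%), against 52.4% of all tested genes. The median member was at -0.28 and the median tested gene at -0.03. For 34 members (45.3%) KO 1 and KO 2 were each lower than WT 1 and WT 2, against 25.2% of all tested genes, for 1 member (1.33%) they were both higher, against 28.3%, and for 40 members the genotypes overlapped.

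The middle 50% of the members' fitted log2 fold changes ran from -0.40 to -0.16, and that of all tested genes from -0.28 to 0.41. Large-subunit members had a median of -0.28 (42 of 45 below 0), and small-subunit members had a median of -0.29 (28 of 30 below 0). Among the 59 members with a mean level of 3.93 to 130 CPM the median was -0.27, and the 11043 tested genes in that range had a median of -0.06.

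**Figure D3:**
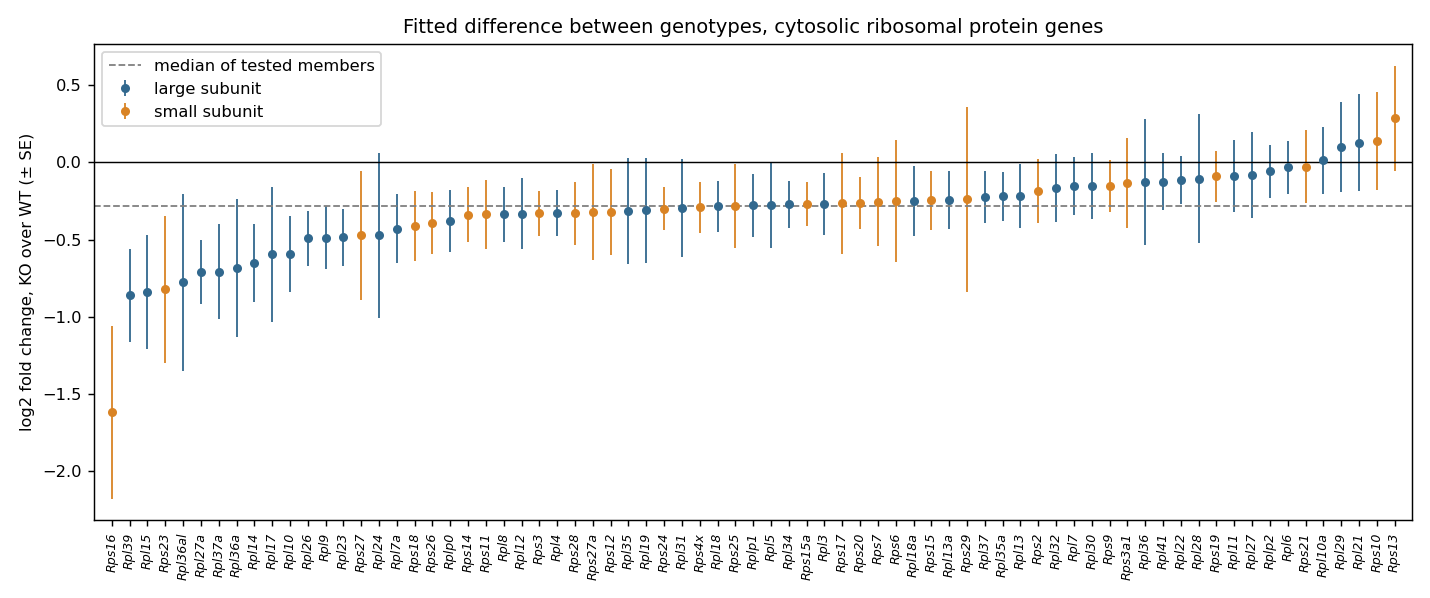
Fitted log2 fold change of KO over WT for 73 of the 75 tested members, ordered by value, with bars for 1 SE from edgeR's quasi-likelihood fit to 4 libraries. Of the 73 points, 68 lie below 0, and the dashed line marks the median of -0.28 over the 75 tested members, of which 0 passed an adjusted p of 0.05.

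The size of the difference depended on which WT library was used. The median log2 ratio of the KO mean to WT 2 was -0.41, and both KO libraries lay below WT 2 in 63 of 75 members (84.0%, against 39.2% of all tested genes). The median log2 ratio to WT 1 was -0.14, and both KO libraries lay below WT 1 in 41 members (54.7%, against 41.2% of all tested genes) and above it in 13 (17.3%, against 40.1%). Without WT 1, edgeR called 24 members lower (32.0%, against 7.09% of all tested genes), among them *Rpl4*, *Rpl8*, *Rpl27a*, *Rplp0*, *Rplp1*, *Rps15*, *Rps16* and *Rps26*. Without WT 2 it called 5 lower (6.67%, against 12.7% of all tested genes), among them *Rpl10*, *Rpl15*, *Rpl27a* and *Rpl39*. In these fits the lone WT library was assumed to vary like the KO libraries. With a correction of each library for trends in gene length and GC content, 12 members were called lower (against 5.07% of all tested genes), among them *Rpl8*, *Rpl27a*, *Rpl39*, *Rplp0*, *Rplp1* and *Rps15*, and 0 were called higher. Over all tested genes, with this correction the higher genes made up 69.1% of the calls in place of 92.8%.

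Of the large-subunit members, *Rpl27a* had the smallest adjusted p and is named after its values were seen. It lies on chromosome 7 of GRCm38 from 109519147 to 109522367. It was at 26.9 and 23.9 CPM in WT and at 16.9 and 14.2 CPM in KO, and each KO library was below each WT library (log2 fold change -0.71, SE 0.21, edgeR adjusted p = 0.086). It was called lower with the correction for length and GC content, without WT 1 and without WT 2. *Rpl27a* shared 35.9% of its 50-base windows with other genes.

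The 4 lowest fitted values belonged to *Rps16*, *Rpl39*, *Rpl15* and *Rps23*. *Rps16*, whose tail reaches the P site, had 19 and 30 counts in the WT libraries and 6 and 9 in the KO libraries. Its log2 fold change of -1.62 (SE 0.56, edgeR adjusted p = 0.135) rested on few reads. *Rpl39*, a small protein of the exit tunnel on chromosome X, was at 46.3 and 24.5 CPM in WT and at 21.6 and 17.2 CPM in KO (-0.86, SE 0.30, adjusted p = 0.139 in the edgeR fit), and its fold change was -0.34 without WT 1 and -1.26 without WT 2. *Rpl15* was at 65.7 CPM in WT 1 and 29.4 CPM in WT 2 and at 32.3 and 20.6 CPM in KO, so that the genotypes overlapped, and its log2 fold change of -0.84 was -0.16 without WT 1 and -1.31 without WT 2. *Rps23*, a protein of the decoding centre, had 31 counts in each WT library and 13 and 21 in the KO libraries. For *Rpl39* and *Rpl15* WT 1 was the highest library, unlike most members.

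At the other end, *Rps13*, *Rps10*, *Rpl21* and *Rpl29* had the highest fitted values. *Rps13* was at 8.81 and 5.49 CPM in WT and at 9.87 and 7.49 CPM in KO (log2 fold change 0.29, SE 0.34). *Rps10*, which lies near the mRNA entry, was at 5.09 and 5.88 CPM in WT and at 6.18 and 5.95 CPM in KO, the one member for which each KO library exceeded each WT library (log2 fold change 0.14, SE 0.32). *Rpl21* (10.4 and 7.05 CPM in WT, 8.32 and 10.7 CPM in KO) and *Rpl29* (8.19 and 7.35 CPM in WT, 7.49 and 9.14 CPM in KO) overlapped between genotypes. Each of the 4 differences was within its SE.

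Among the highly expressed members, *Rpl8* was at 314 and 439 CPM in WT and at 300.2 and 296 CPM in KO (log2 fold change -0.34, SE 0.18, edgeR adjusted p = 0.304). *Rpl4* was at 422 and 512 CPM in WT and at 385 and 359 CPM in KO (-0.33, SE 0.15, edgeR adjusted p = 0.238). In both genes each KO library was below each WT library, but WT 1 stood nearer to KO 1 than to WT 2. The stalk gene *Rplp1* was at 113 and 172 CPM in WT and at 120 and 116 CPM in KO, and the small-subunit gene *Rps15* at 118 and 165 against 110 and 129 CPM, so that the KO libraries overlapped the WT range in both.

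Members that work together in the ribosome are given next, chosen by role after values were seen. The stalk recruits translation factors through *Rplp0*, *Rplp1* and *Rplp2*. *Rplp0*, its base, was at 171 CPM in WT 1, 260.5 in WT 2, 172 in KO 1 and 161 in KO 2, so that WT 2 alone stood apart, and *Rplp2* was at 58.5 and 67.7 CPM in WT and at 54.0 and 67.3 CPM in KO. *Rpl5* and *Rpl11* form a particle with 5S rRNA and bind Mdm2 when ribosome assembly fails. *Rpl5* was at 12.9 and 11.3 CPM in WT and at 8.44 and 11.4 CPM in KO, and *Rpl11* at 13.3 and 14.7 against 12.5 and 13.9 CPM, and both genes overlapped between genotypes. *Rps19* and *Rps26* are mutated in Diamond-Blackfan anaemia. *Rps19* was at 58.8 and 74.7 CPM in WT and at 61.1 and 64.5 CPM in KO (log2 fold change -0.09, SE 0.16, and 0.09 without WT replicate 2), inside the WT range, and *Rps26* at 86.3 and 122 against 87.9 and 71.2 CPM (-0.39, SE 0.20). *Rps27a*, made as a fusion with ubiquitin, was at 8.56 and 6.76 CPM in WT and at 5.59 and 6.61 CPM in KO. For none of these genes did the genotypes separate widely: only *Rps27a* had each KO library below each WT library, with a log2 fold change of -0.32 and an SE of 0.31.

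Of the 4 members on chromosome X, *Rpl39* is given above. *Rpl10*, a protein that joins the large subunit late in its assembly, was at 18.9 and 14.8 CPM in WT and at 10.7 and 11.6 CPM in KO (log2 fold change -0.59, SE 0.25, edgeR adjusted p = 0.203). *Rpl36a* was at 3.35 and 6.17 CPM in WT and at 3.33 and 2.64 CPM in KO. *Rps4x* was at 47.4 and 56.9 CPM in WT and at 45.1 and 40.3 CPM in KO. In all 4 each KO library was below each WT library, as in 25.2% of all tested genes, and none passed the edgeR threshold. For *Rpl36a* the order rested on the TMM scaling, since WT 1 had 27 counts and KO 1 had 28. *Rpl22*, a protein at the surface of the large subunit, was at 101 and 122 CPM in WT and at 105 and 102 CPM in KO (log2 fold change -0.11, SE 0.15). The signs of 7 members differed between normalizations, among them *Rps21* (-0.03 with TMM), *Rpl6* (-0.03), *Rplp2* (-0.06) and *Rpl27* (-0.08), all of them log2 fold changes near 0. Scaling by library size alone moved the median of all genes to 0.08 and that of the members to -0.17, so that the members' median minus that of all genes was -0.26 on the log2 scale under both scalings.

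Further proteins of the ribosome whose symbols fall outside the naming rule were measured in the same fit. *Rack1*, a scaffold on the head of the small subunit, was at 415 and 569 CPM in WT and at 433 and 406 CPM in KO (log2 fold change -0.23, SE 0.18). *Rpsa*, a small-subunit protein and laminin receptor, was at 12.2 and 17.1 CPM in WT and at 9.04 and 7.16 CPM in KO (log2 fold change -0.86, SE 0.29, edgeR adjusted p = 0.127). *Fau*, a fusion of a ubiquitin-like protein with a small-subunit protein, was at 2.48 and 4.61 CPM in WT and at 3.57 and 2.86 CPM in KO. *Rack1* thus had the pattern of the abundant members, with WT 2 above the other libraries, and 0 of these 3 genes passed the edgeR threshold.

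The paralogues left out of the list are tissue-restricted copies in several cases. *Rpl10l*, known from the testis, had 4 counts in WT 2 and 0 in the others. *Rpl3l*, known from muscle, had 0 counts in 3 libraries and 10 in KO 2. *Rpl39l* had 3 counts in KO 1 and 0 elsewhere, and *Rps27rt* had 0 counts in every library, where up to 3 counts are allowed by a count of 0. The others were expressed. *Rpl22l1* was at 17.2 and 11.7 CPM in WT and at 9.99 and 8.48 CPM in KO (log2 fold change -0.64, SE 0.29, edgeR adjusted p = 0.235). *Rps4l* was at 26.1 and 34.5 CPM in WT and at 21.2 and 19.6 CPM in KO (-0.57, SE 0.21, edgeR adjusted p = 0.147). *Rps27l*, a p53-inducible copy, was at 11.3 and 13.8 CPM in WT and at 10.9 and 6.17 CPM in KO. *Rpl7l1*, a factor of large-subunit assembly, was at 55.5 and 58.8 CPM in WT and at 57.8 and 54.9 CPM in KO. None of the 4 tested paralogues passed the edgeR threshold, and each KO library was below each WT library for *Rpl22l1*, *Rps4l* and *Rps27l*, as in 25.2% of all tested genes. *Rps27l* had 91 counts in WT 1 and 92 in KO 1, so that its order too rested on the TMM scaling.

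Genes that build or serve the ribosome were read from lists in the same edgeR fit. In the 12 lists, 0 genes rose or fell at an adjusted p under 0.05, against 7.33% and 0.57% of all tested genes. Of all tested genes, 52.4% had a log2 fold change below 0. For the 77 tested mitochondrial ribosomal protein genes the median was -0.21 on the log2 scale (67 below 0), beside -0.28 for the cytosolic members and -0.03 for all genes. Elongation factors had a median of -0.19 (8 of 9 below 0), eIF3 subunits -0.22 (12 of 13) and other initiation factors -0.30 (21 of 22). Other genes whose transcripts carry the tract or accompany nascent chains had a median of -0.38 (9 of 9). Ribosome biogenesis lists had medians of -0.09 for rRNA transcription (14 of 20 below 0), -0.37 for the core of the small nucleolar ribonucleoproteins (9 of 10), -0.14 for the small-subunit processome (25 of 34), -0.17 for large-subunit assembly (29 of 38) and -0.19 for chaperones and importers of ribosomal proteins (8 of 9). The list of mTOR components and binders of tract mRNAs had a median of -0.01 (13 of 26 below 0), and the Myc network -0.15 (7 of 10). All of these lists except the mTOR list thus had medians below that of all genes, as the ribosomal proteins did.

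**Figure D4:**
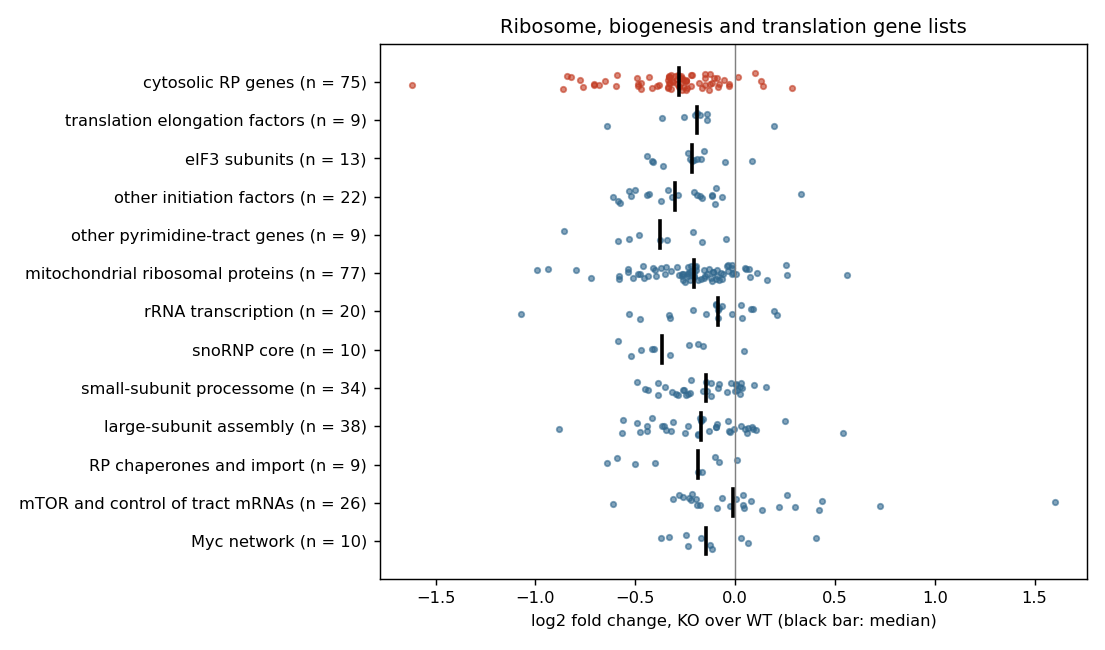
Fitted log2 fold change of KO over WT for single genes (points, with vertical scatter for legibility) in the cytosolic ribosomal protein genes and 12 lists of related genes, with the median as a black bar and the number of tested genes beside each name. The median of the cytosolic members is -0.28, and the medians of the other lists run from -0.38 to -0.01.

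Sequence shared with other genes differed widely between members and went with their measured level. Over the transcript with the longest coding region, the median member had 55.5% of its 50-base windows in a transcript of another annotated gene. *Rps3* (2.96%), *Rpl8* (7.86%) and *Rpl4* (16.4%) were among the low ones. The highest shares were those of *Rps27* (98.6%), *Rpl10* (92.1%), *Rps18* (86.7%), *Rpl9* (86.7%) and *Rpl3* (85.6%). The copies were mostly pseudogenes: *Rpl7a* shared windows with 120 of them and *Rpl21* with 81. *Rps16* shared windows with 65 other protein-coding genes, *Rpl23* with 55 and *Rps20* with 35.

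The 34 members with at most 50% of windows shared had a median level of 71.7 CPM per kilobase of that transcript, and the 43 members above 50% had a median of 17.9. Spearman's rho between share and level was -0.44 over the 77 members, and -0.52 with windows of 75 bases, as a description across genes measured in the same libraries and with no p. The windows were searched only among annotated transcripts. How reads with several positions were counted is not stated in the sources used here, so levels of members with many copies are uncertain. The differences between genotypes did not follow the share: the median log2 fold change was -0.31 in the 34 members at or below 50% (34 of 34 below 0) and -0.27 in the 41 tested members above it (36 of 41), and rho between share and log2 fold change was -0.02.

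**Figure D5:**
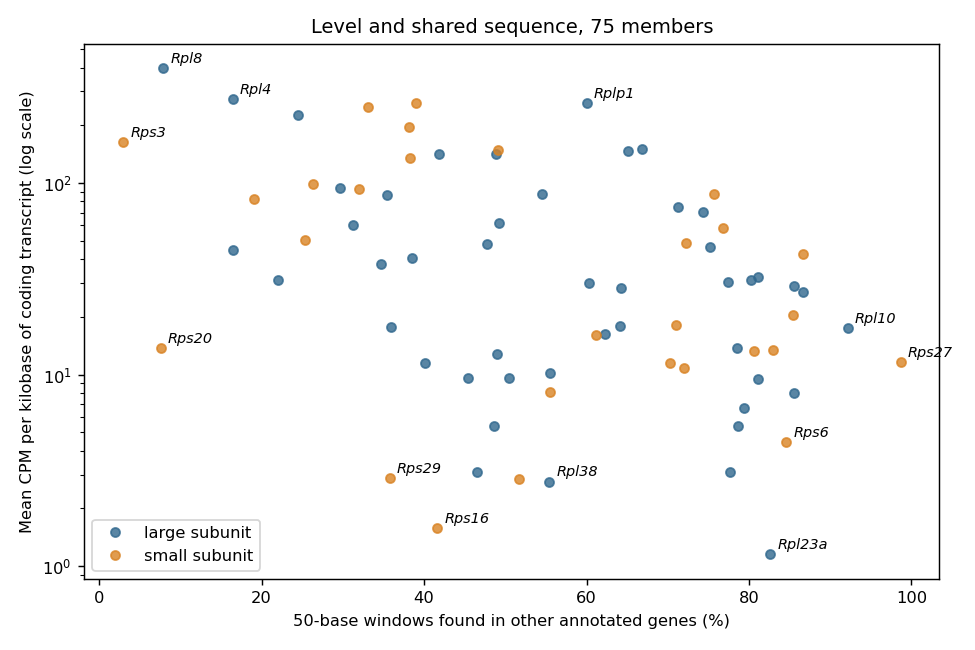
Mean level over the 4 libraries, in CPM per kilobase of the coding transcript on a log scale, against the percentage of its 50-base windows found in other annotated genes, for 75 members. *Rpl8* and *Rpl4* lie at the upper left with 7.86% and 16.4% shared, and *Rpl23a* lies at the lower right.

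Counts were also listed for the pseudogenes themselves. The 1062 pseudogenes that shared a 50-base window with a member held 1333 and 1616 counts in the WT libraries and 1746 and 1928 in the KO libraries, or 0.0149% and 0.0162% of the WT libraries and 0.0216% and 0.0219% of the KO libraries. Each KO library exceeded each WT library in this sum, in the direction opposite to that of most members, and the sum was small beside the 32623 and 51834 counts on the members in WT and the 31667 and 33269 in KO. The pseudogene with the most reads, *Rpl14-ps1*, had 76 and 104 counts in the WT libraries and 97 and 85 in the KO libraries, which overlapped. Exons of 18 members overlapped a gene on the opposite strand, most of all *Rpl35* with *Wdr38* (66.2% of its exon bases) and *Rpl23a* with *Tlcd1* (59.7%), and whether the counting used the strand is not stated. Without these members the median log2 fold change was -0.28, with 55 of 58 below 0. That count kept members that overlapped another gene on the same strand only. Among them were *Rpl24* with *Gm28037* (47% of its exon bases), *Rpl13a* with *Gm45713* (29.4%) and *Rpl36al* with *Gm49383* (24.5%). The part of these overlaps in the counts was not tested.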

How the data were processed

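As deposited by the authors, the values are unnormalized counts of reads on each gene, in a separate list for each library, and the submitters' processing notes name CASAVA 1.8.2, STAR 2.5.2a, featureCounts 1.5.0-p1 and the builds mm10 and GRCm38. Strand and multi-mapping settings, read length and annotation are not given in the sources used here. Of 55573 identifiers, 55480 were matched to GENCODE M21 (GRCm38). Genes were filtered with edgeR's filterByExpr by genotype (16832 kept), scaled with TMM and tested by the quasi-likelihood method of edgeR (R 4.3.3, edgeR 4.0.16, DESeq2 1.42.0, limma 3.58.1) with genotype as the only term, Benjamini-Hochberg adjustment and a threshold of 0.05. CPM used TMM-scaled library sizes. The steps were run on simulated counts with the same spread in both genotypes, set below the spread within WT here. That run therefore does not show how the calls hold at the spread of these WT libraries. Members and lists were chosen with earlier results of these data known. Members named were the 4 highest and 4 lowest fold changes, the 5 highest and 3 lowest levels per kilobase, those on chromosome X, the 3 shortest proteins, the 5 with most shared windows, 4 whose sign changed between normalizations, and *Rps29*, *Rps6* and *Rpl22*. Others were added after values were seen, for their role, level or adjusted p. Shared windows were sought among GENCODE M21 transcripts of other, non-overlapping genes, since no genome sequence was used here. Alternatives were other tools, scalings and filters, a length and GC correction, a replicate block, each library left out, and pseudogene rows added. Values of 3 genes are not reported here, and figures that name members leave out 2 of these.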

Additional observations from a re-analysis of the deposited data

How the results depend on the processing

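Limits: with 2 libraries per genotype, the number of members called changed with the WT library left out and with the correction, and values of genes with few counts were imprecise. Libraries that share a number correlated at 0.137 in their deviations over all tested genes and at -0.01 over the members, so the numbers mark no shown pairing. Levels of members with many copies and overlaps are uncertain. The cause of each change below was not tested, beyond the fewer libraries of the fits that leave one out.

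The median log2 fold change of the members stayed below 0 in every alternative, from -0.42 without WT replicate 1 to -0.14 without WT replicate 2, and 0 members were called higher in any of them. Against 0 members called lower with TMM and edgeR, 1 was called with DESeq2, 5 of 77 with no filter on low counts (1.91% of all genes), 12 with the correction for length and GC content (5.07%), 4 of 75 with the replicate block (*Rpl15*, *Rpl27a* and *Rpl39* among them, 3.68%) and 19 with the correction and the replicate block together (6.42%). With 1 library left out, the number called lower ranged from 0 without KO replicate 1 or KO replicate 2 to 24 without WT replicate 1. Over all tested genes, 96 were lower in the fit reported, against 247 with DESeq2, 573 with no filter, 52 with at least 10 counts in every library, 619 with the replicate block, 853 with the correction and 1081 with the correction and the replicate block. The number higher, 1233 in the fit reported, was 1909 with the correction and 2080 with the correction and the replicate block. With 1 library left out, 706 to 2514 genes were higher and 20 to 2144 were lower. The log2 ratio of the members' share of counts, -0.20 with all libraries, ranged from -0.43 to 0.0785 with 1 library left out.

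Of the 75 tested members, 54 were below 0 without WT replicate 2 and 72 without KO replicate 2, against 70 with all libraries. The alternatives were read member by member for 43 members, and signs among these turned as follows, in log2 fold changes. With library size only, *Rpl11* was at 0.0188, *Rps19* at 0.0114, *Rpl27* at 0.0173, *Rpl6* at 0.0714, *Rplp2* at 0.0458 and *Rps21* at 0.0622. *Rps21* was also at 0.0004 with limma-voom, at 0.0062 with the upper quartile, at 0.007 with at least 10 counts in every library and at 0.008 with the replicate block. *Rpl6* was at 0.0067 with the upper quartile and at 0.0049 with at least 10 counts. *Rpl29* was at -0.0336 with the correction and at -0.0296 with the correction and the block. *Rps6* was at 0.0116 with pseudogene rows added. With 1 library left out, *Rpl21* ranged from -0.1312 to 0.4267, *Rpl22* ranged from -0.2484 to 0.0272, *Rpl27* ranged from -0.2997 to 0.1818, *Rpl3* ranged from -0.5039 to 0.0157, *Rpl41* ranged from -0.3147 to 0.0889, *Rpl6* ranged from -0.1662 to 0.1165, *Rplp1* ranged from -0.5549 to 0.0574, *Rplp2* ranged from -0.2199 to 0.0924, *Rps13* ranged from -0.025 to 0.652, *Rps15* ranged from -0.4687 to 0.016, *Rps19* ranged from -0.2537 to 0.0949, *Rpl35* ranged from -0.6897 to 0.1991, *Rps21* ranged from -0.346 to 0.383 and *Rpl29* ranged from -0.044 to 0.2354. None of the 43 was called in the edgeR fit, and of their values under the alternatives 652 kept sign and side of the threshold, 44 passed the threshold and 31 changed sign.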
